A study of Mus musculus with 14 samples.

Results

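The comparison concerned embryoid bodies, free-floating aggregates of differentiating mouse embryonic stem cells, at day 10 of a mesodermal protocol, set between a line labelled Foxk1 KO and its control. It took 4 of the 14 RNA-seq libraries of the series: 2 control libraries and 2 KO libraries, chosen by their labels for day 10, and it was described across all genes. The libraries are titled Control and Foxk1KO; the extraction protocol gives the control line as iHA-Foxk1, and the labels state neither how the KO allele was made nor how many clones each line represents. Both lines were grown on feeder fibroblasts in serum with LIF, depleted of feeders, and differentiated by shaking in serum, transferrin, monothioglycerol and ascorbic acid, so the 2 groups share every culture condition the labels name. With 1 line on each side, any other difference between the lines cannot be told apart from the labelled Foxk1 genotype. Embryoid bodies at day 5 (2 libraries labelled iHAFoxk1 with the suffix ND, which the labels do not explain, and 2 labelled Foxk1 KO) served for comparison, and 2 day 10 KO libraries treated with IWR1, a stabiliser of Axin that lowers Wnt/β-catenin signalling, entered the day 10 model only to estimate the spread. The labels do not tell whether the 2 libraries of a group are separate cultures, so the p-values below measure the spread between these libraries, which may be technical.

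Foxk1 is a winged-helix transcription factor of the forkhead family, known from muscle progenitors and, with its paralog Foxk2, as a repressor of autophagy genes and an activator of glycolytic genes. Embryoid bodies in mesodermal medium form beating heart muscle, blood, endothelium and mesenchyme beside remnants of endoderm and neural tissue. Heart muscle arises when mesoderm switches on the transcription factors Nkx2-5, Tbx5, Gata4, Hand2 and Mef2c, which then turn on the genes of the sarcomere, the contractile unit of actin and myosin filaments. Transcript levels in a whole embryoid body reflect both the cells present and what each cell transcribes: fewer cells of a type and less RNA per cell cannot be told apart here.

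The targeted gene did not separate the groups at day 10. Foxk1 (chr5:142401497-142462011, GRCm38) was measured at 65 and 80.1 CPM (counts relative to library sizes scaled by TMM, a trimmed mean of M-values) in the control libraries and 71.3 and 41.8 CPM in the KO libraries, log2 fold change -0.36 ± 0.39 (standard error, as after ± throughout), adjusted p = 0.722 by the quasi-likelihood test of edgeR, p-values adjusted after Benjamini and Hochberg. The groups overlapped, KO library 1 lying between the controls. Foxk2 was not called either, at 108 and 114 CPM against 118 and 101 CPM (log2 fold change -0.01, adjusted p = 0.988). At day 5 Foxk1 had been lower in the KO libraries, at 134 and 133 CPM in the controls and 38.2 and 33.6 CPM in the KO libraries (log2 fold change -1.90, adjusted p = 4.91e-07), and the day 10 effect differed from the day 5 effect by 1.49 (limma, adjusted p = 0.0146). A deletion can leave transcript in place, so this level does not settle the genotype, and every direction below rests on the labels: "KO" stands for the libraries labelled Foxk1 KO. The Y-linked gene Eif2s3y, measured at 6.34 and 5.37 CPM in the controls and 58.4 and 59.2 CPM in the KO libraries at day 5, stood at 6.60 and 6.91 CPM against 6.14 and 7.90 CPM at day 10. Neither Foxk1 nor Eif2s3y told the 2 labels apart at day 10 as it did at day 5. Of 4 Y-linked genes tested at day 10 none was called by edgeR. However, 3 lay above both controls (25.7% of all genes tested did), with a median log2 fold change of 0.64. The largest, Kdm5d, had a log2 fold change of 1.54 (adjusted p = 0.0537 by edgeR). DESeq2, an alternative test, called it (adjusted p = 0.00896).

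Library totals ran from 34999822 to 41539510 estimated counts, so 3 counts correspond to at most 0.082 CPM. Pearson's r of log2 CPM across genes was 0.985 between the controls, 0.975 between the KO libraries and 0.938 to 0.955 between groups. Mitochondrial transcripts took 3.00% and 3.78% of counts in the controls and 2.28% and 1.55% in the KO libraries, and the part of this in the results below was not tested. Of 17022 genes tested, 897 passed an adjusted p of 0.05 (5.27%), 327 higher (1.92%) and 570 lower (3.35%) in the KO libraries. The counts of calls given for each list below are to be read against these shares. The calls were large: 307 of the higher and 566 of the lower calls exceeded a doubling, and 12 and 106 exceeded 16-fold. Over all genes tested the median log2 fold change was 0.02. Lower calls made up 63.5% of all calls, and 77.8% when libraries were scaled by total count alone (150 higher and 525 lower), a scaling that moved the median of all genes to -0.14. The number of calls depended on single libraries: it was 63 without control 1, 151 without control 2, 838 without KO 1 and 281 without KO 2, in fits that rest on fewer samples and assume that a lone library varies like the other groups. Of the 104 called genes named below, 20 stayed called without control 1, 41 without control 2, 86 without KO 1 and 53 without KO 2, and none changed direction.

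Of the 47 gene lists described, that of the contractile apparatus had the lowest median. Of 25 sarcomere genes tested, 19 were lower and none higher in the KO libraries, with a median log2 fold change of -4.69 against 0.02 for all genes. Summed over the list, the level was 7964 and 6605 CPM in the controls and 971 and 1429 CPM in the KO libraries. The cardiac myosin heavy chain Myh6 (chr14:54941921-54966927) measured 1199 and 1383 CPM in the controls and 2.60 and 17.5 CPM in the KO libraries, log2 fold change -7.01 ± 1.00, adjusted p = 0.017. Its neighbour Myh7, the heavy chain of the slow and fetal ventricle, measured 185 and 169 against 0.728 and 4.10 CPM (log2 fold change -6.21). The Myh6 call was lost without control 1 (adjusted p = 0.0569) and with no filter on low counts (adjusted p = 0.104). KO 1 was the lowest library for both genes, and since the 2 genes are close paralogs, the counting could have split shared reads between them. Cardiac actin, Actc1, stood at 1455 and 1191 CPM in the controls and 9.51 and 30.3 CPM in the KO libraries, log2 fold change -6.05 ± 0.61, adjusted p = 0.00847. Titin (Ttn), the molecular spring that spans the sarcomere, was at 106 and 119 against 1.38 and 1.72 CPM (log2 fold change -6.18 ± 0.29, adjusted p = 0.00121). Cardiac myosin-binding protein C, Mybpc3, had the least spread of these genes, with 224 and 219 CPM in the controls and 5.19 and 5.0 CPM in the KO libraries, log2 fold change -5.44 ± 0.22, adjusted p = 0.00118. The same separation held for Tnnt2, cardiac troponin T, at 508 and 455 against 43.4 and 78 CPM (log2 fold change -2.99 ± 0.32, adjusted p = 0.00868), a smaller change than that of Ttn or Mybpc3. Troponin I (Tnni3), the atrial light chains Myl7 and Myl4, and the Z-disc protein α-actinin 2 (Actn2) had log2 fold changes of -5.55, -5.36, -5.32 and -4.82, and in each the control and KO libraries lay apart. Myl2, the ventricular light chain, did not pass the test, with 175 and 152 CPM against 0.218 and 12.5 CPM (adjusted p = 0.112), KO 2 lying far above KO 1. Desmin (Des) and Tpm1, a tropomyosin of many cell types, were among the other genes of the list not called. Both were picked after their values were seen. Des measured 154 and 136 CPM against 165 and 182 CPM, and Tpm1 800.2 and 664 CPM against 556 and 725 CPM (adjusted p = 0.618 and 0.78). The count of sarcomere genes lower was 8 without control 1, 15 without control 2, and 19 without either KO library; Ttn, Mybpc3, Actc1, Myl4 and Actn2 were called in every one of these 4 fits.

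**Figure D1:**
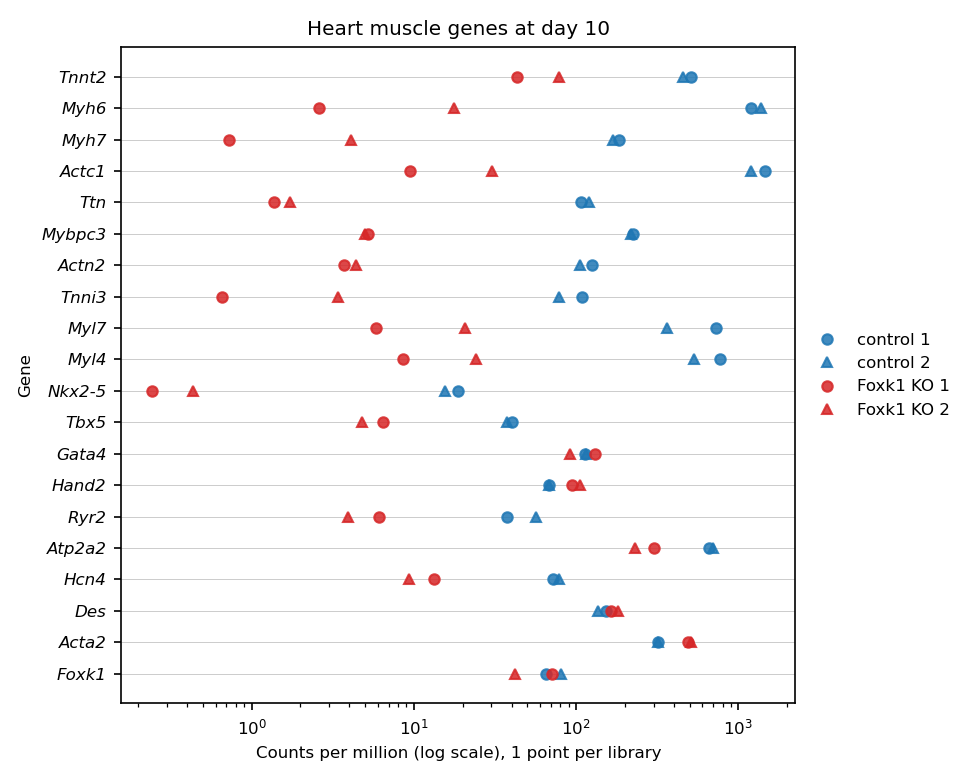
CPM (log scale) of 20 genes in each of the 4 day 10 libraries, blue for control and red for Foxk1 KO, circles for replicate 1 and triangles for replicate 2. From Tnnt2 to Tbx5 the KO points lie left of the control points (Myh6, 2.60 and 17.5 CPM against 1199 and 1383 CPM), while those of Gata4, Des and Foxk1 lie among or beside the controls.

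Further muscle genes outside the list were among the largest falls. Xirp1, an actin-binding protein of the intercalated disc, measured 39.5 and 42.1 CPM in the controls and 0.655 and 0.547 CPM in the KO libraries (log2 fold change -6.07 ± 0.27, adjusted p = 0.00118). Fsd2, known from striated muscle, stood at 35.1 and 29.3 against 0.170 and 0.519 CPM, the unconventional muscle myosin Myo18b at 38.2 and 45.7 against 0.631 and 0.765 CPM, and the Z-disc protein Synpo2l at 38.6 and 36.3 against 1.26 and 1.09 CPM. All 4 were called in each fit that left out 1 library. Gyg, glycogenin, which primes glycogen chains, stood at 435 and 352 against 56.6 and 74.3 CPM (log2 fold change -2.59 ± 0.24, adjusted p = 0.0065).

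The upstream sequence of the falling sarcomere genes was read from the RefSeq promoter table (GRCm38.p6), using the 250 bases before each annotated start. Of the 19 falling genes, 18 had an entry, with 25 starts. A CArG box, the serum response factor motif with 2 C, 6 A or T and 2 G, was present before 7 of the 25 starts (28%), against 190 of 15735 starts of the genes tested that had an entry (1.21%) and 482 of all 32851 starts in the table (1.47%). The 7 starts belong to 6 genes, since 2 overlapping windows of 1 gene hold the same box; counted by gene, 6 of 18 (33.3%) had a box against 179 of 12389 genes tested (1.44%). Among starts of all genes called lower the share was 4.33% (23 of 531, the sarcomere genes included), and among those called higher it was 0.34% (1 of 294). The MEF2 box was found before 3 of the 25 starts (12%), 2.82% of the starts of genes called lower, 1.02% of those called higher and 0.439% of those tested. These 2 motifs were chosen after the falls had been seen; a match is a description of the letters and no measure of binding. Each upstream stretch printed here carries 1 CArG box, in capitals. It lay 47 bases before the start for Actc1, 61 for Myl7, 85 for Myl3 and 99 for Myom1, counted from the box's first base on the coding strand. Of the genes with a box that are not printed, Ldb3 had it 109 and 35 bases before its 2 starts. Nebl had it 162 bases before 1 of its starts.
Actc1: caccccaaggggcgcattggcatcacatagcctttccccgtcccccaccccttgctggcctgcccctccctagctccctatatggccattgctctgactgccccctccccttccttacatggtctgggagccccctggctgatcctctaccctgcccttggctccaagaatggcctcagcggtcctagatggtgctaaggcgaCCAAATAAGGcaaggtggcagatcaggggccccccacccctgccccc
Myl7: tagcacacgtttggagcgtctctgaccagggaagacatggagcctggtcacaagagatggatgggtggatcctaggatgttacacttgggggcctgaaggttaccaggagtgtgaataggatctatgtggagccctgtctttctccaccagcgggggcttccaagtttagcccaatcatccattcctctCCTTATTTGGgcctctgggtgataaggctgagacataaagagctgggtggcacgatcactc
Myl3: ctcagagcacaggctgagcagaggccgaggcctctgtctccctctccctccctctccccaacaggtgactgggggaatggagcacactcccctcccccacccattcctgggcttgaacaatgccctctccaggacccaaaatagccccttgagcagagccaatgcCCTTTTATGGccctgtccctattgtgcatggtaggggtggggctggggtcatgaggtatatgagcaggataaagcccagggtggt
Myom1: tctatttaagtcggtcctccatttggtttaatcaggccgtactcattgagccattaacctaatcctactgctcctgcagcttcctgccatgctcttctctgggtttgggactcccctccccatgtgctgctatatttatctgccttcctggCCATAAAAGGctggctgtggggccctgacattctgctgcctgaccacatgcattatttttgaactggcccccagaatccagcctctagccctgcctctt
The stretches span chr2:114052876-114053125 (minus strand) for Actc1, chr11:5898783-5899032 (minus strand) for Myl7, chr9:110763428-110763677 (plus strand) for Myl3 and chr17:71019307-71019556 (plus strand) for Myom1. Myl3, the ventricular essential light chain, measured 241 and 148 CPM in the controls and 0.655 and 9.43 CPM in the KO libraries (log2 fold change -5.27 ± 1.09, adjusted p = 0.0455), and Myom1, the M-band protein myomesin, 123 and 115 against 9.10 and 7.65 CPM (log2 fold change -3.82 ± 0.21, adjusted p = 0.00141). A core forkhead motif, TAAACA or its reverse complement TGTTTA, occurred before 9.18% of starts of genes called higher (27 of 294), 10.2% of those called lower (54 of 531), 8.24% of those tested and 12% of the whole table, and before 1 of the 25 sarcomere starts.

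Calcium handling and conduction genes followed, with 12 of 21 lower (3.35% of all genes tested were) and none higher. Their median log2 fold change was -1.92. Ryr2, the calcium release channel of the sarcoplasmic reticulum, measured 37.7 and 56.6 CPM in the controls and 6.09 and 3.94 CPM in the KO libraries, log2 fold change -3.23 ± 0.33, adjusted p = 0.00847. The calcium pump Atp2a2, which many cell types express, changed less, from 656 and 701 CPM in the controls to 302 and 231 CPM (log2 fold change -1.35 ± 0.24, adjusted p = 0.0298). Hcn4, the pacemaker channel of the sinus node, was at 72.4 and 78.9 against 13.3 and 9.38 CPM (log2 fold change -2.74 ± 0.31, adjusted p = 0.0105). Kcnj5, a potassium channel subunit of the atrium, fell, with a log2 fold change of -3.93. Nppa, the atrial natriuretic peptide, was low in every library, 1.59 and 2.17 CPM in the controls and 0.0728 and 0.109 CPM in the KO libraries (log2 fold change -4.33 ± 0.67, adjusted p = 0.022). The list's count of lower calls was 2 without control 1, 4 without control 2, 9 without KO 1 and 5 without KO 2, and Ryr2 and Kcnj5 were called in all 4.

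Cardiac transcription factors were lower in part. Of 17 tested, 6 were lower and none higher, and the median log2 fold change was -0.79. Below both controls lay 11 and above both 2 (25.3% and 25.7% of all genes tested did). At an unadjusted p under 0.05 there were 10, and DESeq2 called 9. Over all 17022 genes tested these last numbers were 3392 and 2027. Nkx2-5, the homeobox factor of the heart field, measured 18.7 and 15.5 CPM in the controls and 0.243 and 0.437 CPM in the KO libraries, log2 fold change -5.65 ± 0.40, adjusted p = 0.00443. Tbx5, the T-box factor of the first heart field and atria, was at 40.0 and 37.7 against 6.43 and 4.76 CPM (log2 fold change -2.79 ± 0.24, adjusted p = 0.00562). The muscle histone methyltransferase Smyd1 was at 149 and 118 against 3.44 and 7.11 CPM, and the serum response factor coactivator Myocd at 12.9 and 13.6 against 2.38 and 1.56 CPM, log2 fold changes of -4.66 and -2.74. Other factors were not called, and of these Gata4, Hand2, Gata6 and Isl1 were picked after their values were seen. Gata4 measured 114 and 115 CPM in the controls and 130.4 and 91.3 CPM in the KO libraries, its groups overlapping (log2 fold change -0.05, adjusted p = 0.967). Hand2 measured 68.1 and 68.4 against 94.6 and 105 CPM, and Gata6 103 and 113 against 188 and 157 CPM, both KO libraries above both controls without passing the test (adjusted p = 0.158 and 0.322). Mef2c and Isl1 lay below the controls in both KO libraries at adjusted p = 0.0677 and 0.097. The number of factors called lower was 3 without either control library and 5 without either KO library.

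Genes of cardiac energy supply changed in part. Cpt1b, the muscle carnitine palmitoyltransferase that admits fatty acids to mitochondria, measured 61.3 and 48.6 CPM in the controls and 8.17 and 10.8 CPM in the KO libraries (log2 fold change -2.53 ± 0.27, adjusted p = 0.00868); with Ppargc1a, a coactivator of mitochondrial genes, and Acsl1 it made 3 lower calls among 15 genes of fatty acid use, whose median was -0.02. Cox6a2, the heart and muscle form of a cytochrome oxidase subunit, fell from 56.1 and 32 CPM in the controls to 0.631 and 2.54 CPM (log2 fold change -4.81 ± 0.68, adjusted p = 0.017), and the other muscle form, Cox8b, from 3.17 and 1.38 CPM in the controls to 0.0970 and 0.0820 CPM, the only 2 calls among 21 nuclear genes of oxidative phosphorylation (median -0.04). Of 13 mitochondrially encoded genes none was called by edgeR, though 8 had an unadjusted p under 0.05 and DESeq2 called 5. Of these 13 genes, 9 lay below both controls (25.3% of all genes tested did), with a median of -0.83. The fatty acid list kept no call without control 1, 1 without control 2, 2 without KO 1 and 1 without KO 2, and the nuclear list 0, 2, 2 and 1.

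Calls among genes of the other muscle types went both ways. Of 10 smooth muscle genes 2 were lower (3.35% of all genes tested were) and none higher. Above both controls lay 7 and below both 2 (25.7% and 25.3% of all genes tested did). At an unadjusted p under 0.05 there were 7, and DESeq2 called 4, against 3392 and 2027 of all 17022 genes tested. The 2 lower were Cnn1 (calponin, 28.2 and 24.7 against 2.16 and 1.83 CPM, log2 fold change -3.73 ± 0.31, adjusted p = 0.00562) and Synpo2 (38.8 and 44.7 against 14.5 and 6.97 CPM), both also expressed in developing heart. Smooth muscle actin, Acta2, measured 320.5 and 319 CPM in the controls and 493 and 511 CPM in the KO libraries, and transgelin (Tagln) 97.1 and 86.4 against 179 and 234 CPM; both lay above the controls without passing the test (adjusted p = 0.153 and 0.145), and the list's median was 0.78. Only 7 of 12 skeletal muscle genes were expressed enough to test. Of these, 1 was higher (1.92% of all genes tested were), the fast troponin Tnnt3 (2.38 and 2.36 against 5.87 and 6.20 CPM). Without either control library or without KO 2 the smooth muscle count was 1 (Cnn1), and Tnnt3 was called in none of the 4 fits that left out 1 library.

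**Figure D2:**
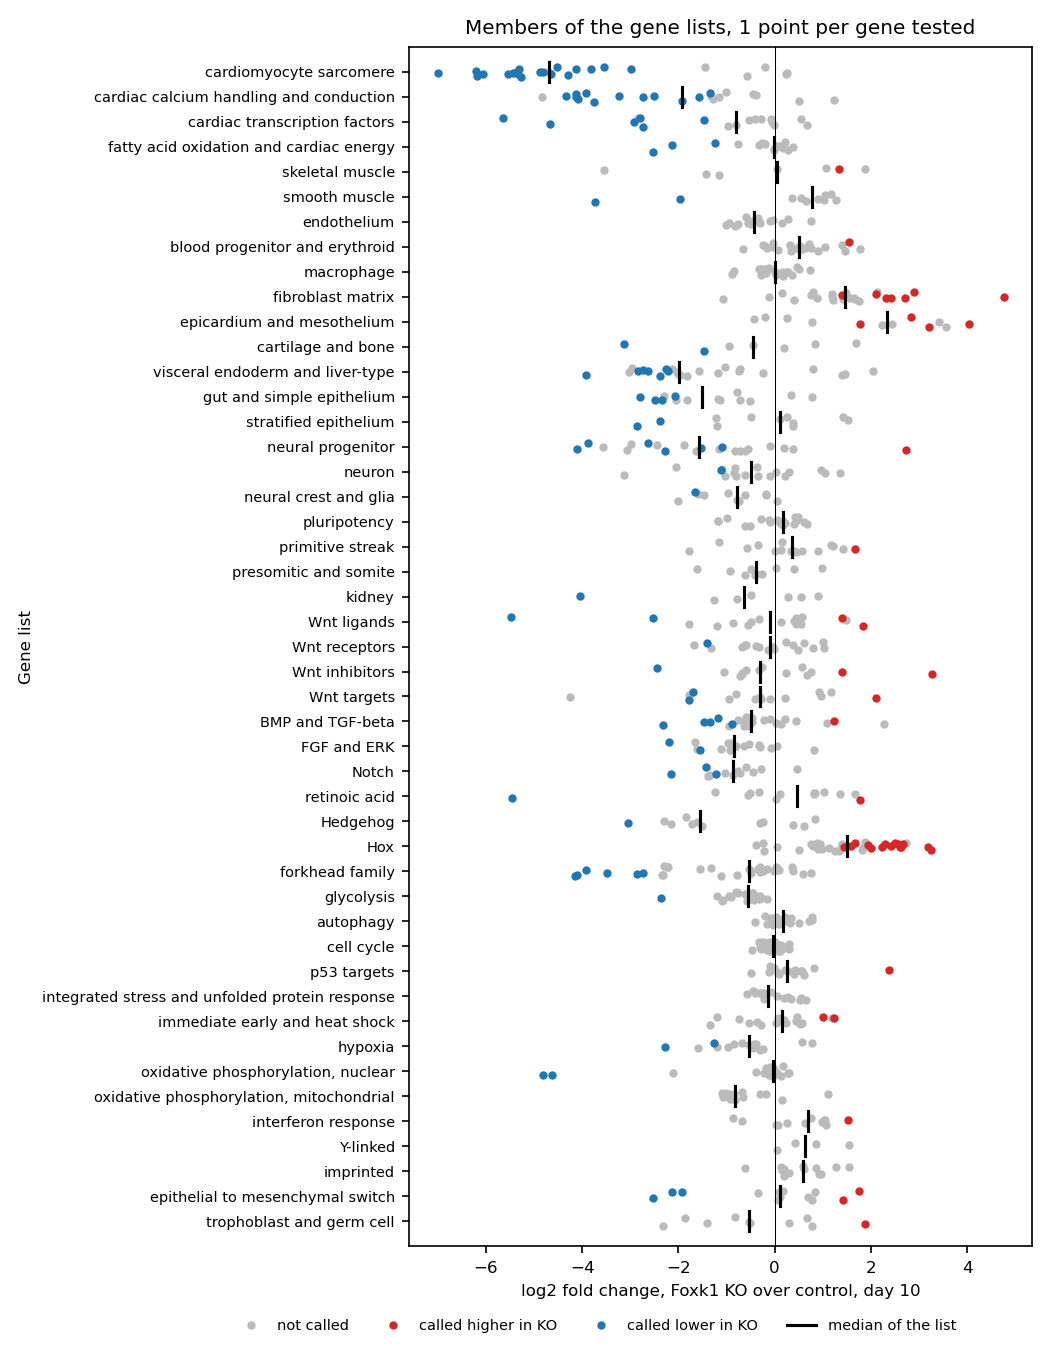
Log2 fold change at day 10, Foxk1 KO over control, of each gene tested in 47 lists (1 point per gene; genes with no count in a group are not drawn), with list medians as black bars. Blue points, called lower, gather in the 3 cardiac lists at the top, and red points, called higher, in the fibroblast matrix, epicardium and mesothelium, and Hox lists.

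Extracellular matrix and mesothelial genes were higher. Of 24 genes of the fibroblast matrix list, 7 rose and none fell, 20 lay above both controls (25.7% of all genes tested did), and the median log2 fold change was 1.46. Osteoglycin (Ogn, chr13), a small leucine-rich proteoglycan that binds collagen, measured 3.17 and 2.89 CPM in the controls and 71.1 and 93.8 CPM in the KO libraries, log2 fold change 4.76 ± 0.60, adjusted p = 0.0126. Its relative decorin (Dcn) measured 94.3 and 72.6 against 480.1 and 761 CPM and lumican (Lum) 254 and 213 against 796 and 1222 CPM, rises of 2.90 and 2.11 on the log2 scale. The collagen cross-linking oxidase Lox rose from 80.1 and 57.6 CPM in the controls to 356 and 385 CPM (log2 fold change 2.43 ± 0.43, adjusted p = 0.0309), and Timp1, an inhibitor of matrix metalloproteinases, from 15.3 and 13.9 CPM in the controls to 60.9 and 85.5 CPM (log2 fold change 2.33 ± 0.24, adjusted p = 0.00847). Sparc, a collagen-binding matrix protein, rose from 1452 and 1245 CPM in the controls to 3075 and 4069 CPM. The fibrillar collagen Col1a1 was higher in both KO libraries, 9824 and 6685 CPM against 2519 and 2685 CPM, but did not pass the test (log2 fold change 1.67 ± 0.53, adjusted p = 0.142). The mesenchymal receptor Pdgfra overlapped between groups (72.5 and 115 against 131 and 77.8 CPM). Without KO 1 the list had 6 calls, without KO 2 it had 2, and without either control library none; under total count scaling 3.

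Genes with large rises outside the list were of several kinds. Asporin (Aspn) and fibromodulin (Fmod), 2 further leucine-rich proteoglycans, measured 0.466 and 0.503 against 9.99 and 14.7 CPM and 13.3 and 16.3 against 249 and 196 CPM, rises of 4.66 and 3.91. Cthrc1, a secreted protein of activated fibroblasts, rose from 10.8 and 9.16 CPM in the controls to 73.9 and 121 CPM (log2 fold change 3.29 ± 0.33, adjusted p = 0.00841). Lrat, which esterifies retinol for storage, rose from 0.560 and 0.636 CPM in the controls to 11.9 and 19.1 CPM (log2 fold change 4.69 ± 0.59, adjusted p = 0.0124). Osmr, the oncostatin M receptor, stood at 1.59 and 2.04 against 16.8 and 16.6 CPM and Ptgis, prostacyclin synthase, at 14.3 and 14 against 89.6 and 110.2 CPM, with log2 fold changes of 3.20 and 2.82. Itm2a, a membrane protein of early chondrocytes and other mesenchyme, was at 594 and 470.4 CPM in the controls and 1799 and 4094 CPM in the KO libraries, KO 2 well above KO 1. None of these 7 genes was called without control 1, and Fmod was called in none of the 4 fits that left out 1 library.

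Among 12 epicardial and mesothelial genes 4 rose and none fell, with 9 above both controls (25.7% of all genes tested were) and a median of 2.34. Wt1, the zinc-finger factor of mesothelium, epicardium and kidney, measured 8.91 and 12.4 CPM in the controls and 97 and 101 CPM in the KO libraries, log2 fold change 3.22 ± 0.62, adjusted p = 0.0373. Mesothelin (Msln) was at 0.373 and 0.742 against 5.39 and 13 CPM (log2 fold change 4.05 ± 0.62, adjusted p = 0.0216), and Lrrn4, a mesothelial membrane protein, at 9.0 and 10.6 against 75.2 and 63.7 CPM (log2 fold change 2.83 ± 0.55, adjusted p = 0.0391). Aldh1a2, which makes retinoic acid, rose from 11.6 and 20.9 CPM in the controls to 49.8 and 61.4 CPM (log2 fold change 1.78 ± 0.31, adjusted p = 0.0299). Upk3b, a uroplakin of mesothelium, was further apart than Lrrn4 in fold change but did not pass the test, at 22.4 and 15.5 CPM against 186 and 259.6 CPM (log2 fold change 3.55 ± 1.18, adjusted p = 0.153), and the epicardial factors Tbx18 and Tcf21 were not called (log2 fold change 0.77 and -0.20). Without KO 1 the list had 3 calls; without any of the other 3 libraries it had none, and 1 under total count scaling.

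**Figure D3:**
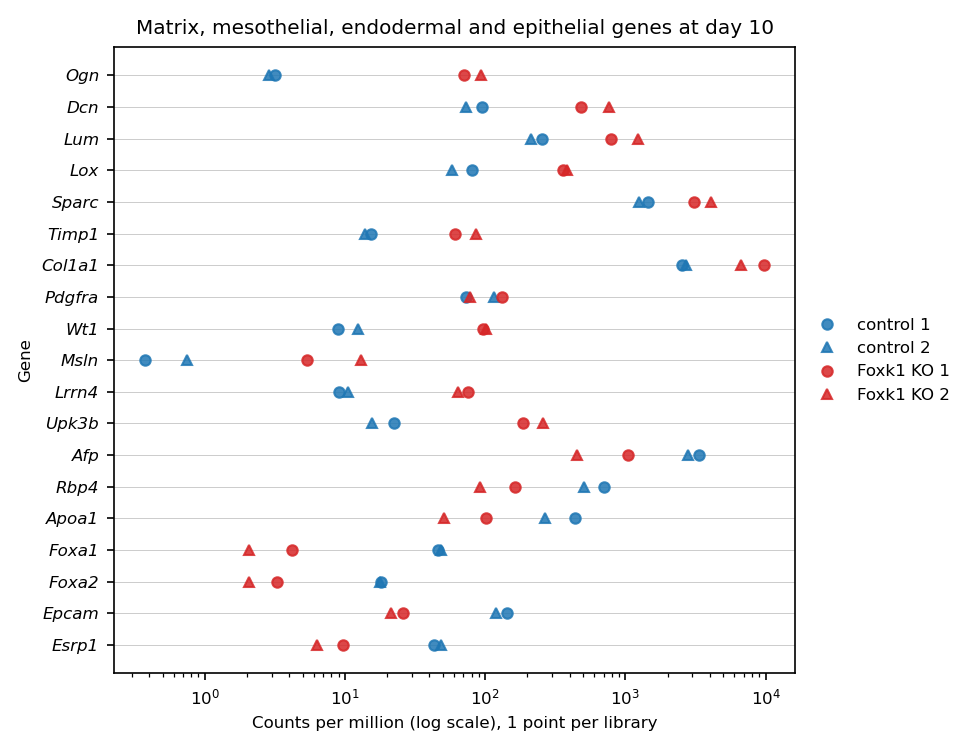
CPM (log scale) of 19 genes in each of the 4 day 10 libraries, blue for control, red for Foxk1 KO, circles for replicate 1 and triangles for replicate 2. Matrix and mesothelial genes from Ogn to Upk3b lie further right in the KO libraries, except Pdgfra, where the groups overlap; Afp to Esrp1 lie further left.

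Hox genes were higher. These homeobox factors lie in 4 clusters and are switched on in order along the body axis, low paralog numbers for the head and neck and high numbers for the trunk and tail. Of 36 tested, 15 were higher and none lower. Above both controls lay 30 (25.7% of all genes tested did), with a median log2 fold change of 1.51. Hoxa10 measured 6.69 and 8.53 CPM in the controls and 38.3 and 52.5 CPM in the KO libraries, log2 fold change 2.58 ± 0.26, adjusted p = 0.00847. Hoxc10 was at 3.43 and 4.53 against 37.6 and 37.7 CPM (log2 fold change 3.24 ± 0.46, adjusted p = 0.017) and Hoxa11 at 2.94 and 6.06 against 24.5 and 23.8 CPM (log2 fold change 2.42 ± 0.37, adjusted p = 0.0207). Hoxa2, of an anterior group, was at 0.583 and 1.24 against 1.5 and 1.91 CPM and was not called. Split by paralog number after the values were seen, groups 6 to 13 held 13 calls among 21 genes with a median of 1.95, and groups 1 to 5 held 2 calls among 15 (Hoxc4 and Hoxc5) with a median of 0.88. The difference between these 2 sets was not tested. Hox clusters carry antisense transcripts, and the labels do not say which of a stranded and an unstranded kit was used, so sense and antisense reads may be mixed. The count of Hox calls was 0 without control 1, 3 without control 2, 12 without KO 1, 3 without KO 2, and 10 under total count scaling.

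**Figure D4:**
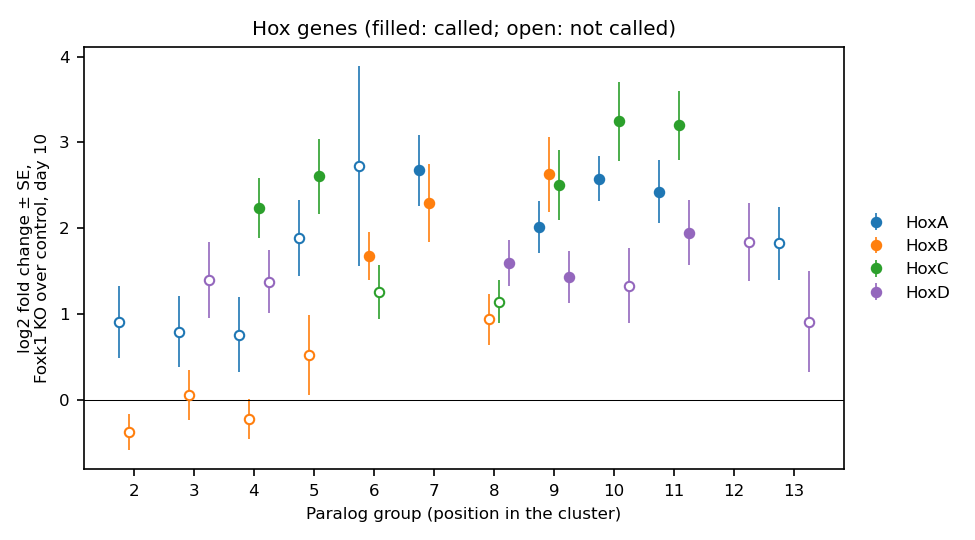
Log2 fold change ± SE at day 10, Foxk1 KO over control, of the 33 Hox genes of paralog groups 2 to 13, by group and cluster (colour); filled points were called higher. Filled points lie at groups 4 to 11 and reach 3.24 for Hoxc10, and the only points below 0 belong to the HoxB cluster at groups 2 and 4.

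Retinoic acid signalling, which sets Hox position along the axis, showed 1 rise and 1 fall among 14 genes (1.92% and 3.35% of all genes tested). Above both controls lay 7 and below both 4 (25.7% and 25.3% of all genes tested did). At an unadjusted p under 0.05 there were 7, and DESeq2 called 4, against 3392 and 2027 of all 17022 genes tested. Aldh1a2 and Lrat, which rose, and Rbp4, which fell, are counted outside this list. The receptor Rarb, itself a retinoic acid target, rose from 13.7 and 16.1 CPM in the controls to 52.1 and 49.7 CPM (log2 fold change 1.77 ± 0.25, adjusted p = 0.017). Cyp26c1, which degrades retinoic acid in the head, fell from 3.15 and 1.64 CPM in the controls to 0.0243 and 0.0820 CPM (log2 fold change -5.45 ± 0.70, adjusted p = 0.0128). Neither was called without control 1, and Rarb was not called without control 2.

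Genes of visceral endoderm and of gut and simple epithelium were mostly lower. Of 24 genes of visceral endoderm and liver type, 7 fell and none rose, 18 lay below both controls (25.3% of all genes tested did), and the median was -1.99. The pioneer factor Foxa1 measured 46.3 and 48.2 CPM in the controls and 4.17 and 2.05 CPM in the KO libraries, log2 fold change -3.92 ± 0.39, adjusted p = 0.00839. Foxa2, its paralog in definitive endoderm and floor plate, was at 18.1 and 17.9 against 3.27 and 2.08 CPM (log2 fold change -2.75 ± 0.34, adjusted p = 0.0123). Rbp4, the serum carrier of retinol, fell from 702 and 509.6 CPM in the controls to 162 and 92 CPM, and Apoa1, the main apolipoprotein of HDL, from 436 and 266 CPM in the controls to 101 and 50.6 CPM (-2.25 and -2.21 on the log2 scale). Alpha-fetoprotein (Afp) was lower in both KO libraries without passing the test, 3343 and 2778 CPM against 1040.2 and 449.7 CPM (adjusted p = 0.0892), and transthyretin (Ttr) likewise (243 and 194 against 146 and 48.7 CPM, adjusted p = 0.317). KO 2 was the lower of the 2 KO libraries for each of these 6 genes. The number of lower calls was 1 without either control library, 12 without KO 1 and 3 without KO 2, and without KO 2 2 genes of the list were called higher.

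Of 14 genes of gut and simple epithelium 4 fell (3.35% of all genes tested did) and none rose (median -1.5). Below both controls lay 11 and above both 2 (25.3% and 25.7% of all genes tested did). The adhesion protein Epcam measured 143 and 119 CPM in the controls and 25.8 and 21.2 CPM in the KO libraries, log2 fold change -2.48 ± 0.29, adjusted p = 0.0115, and the tight junction proteins Cldn6 and Cldn7 fell, with log2 fold changes of -2.34 and -2.08. Esrp1, a splicing regulator of epithelial transcripts, was at 43.3 and 48.5 against 9.70 and 6.26 CPM (log2 fold change -2.52 ± 0.27, adjusted p = 0.00869). E-cadherin (Cdh1) lay below both controls at 72.2 and 25.9 CPM against 162 and 185 CPM without passing the test (adjusted p = 0.0867). Stratified epithelium did not share the low median: of 11 genes 2 fell and none rose, with a median of 0.11. Below both controls lay 5 of them and above both 2. Of 13 genes of the switch between epithelial and mesenchymal character 2 rose and 3 fell, with a median of 0.12. The factors Twist2 and Prrx1 rose by 1.43 and 1.76, Twist2 staying called only without KO 1 and Prrx1 in none of the 4 fits that left out 1 library, while vimentin (Vim, 759.7 and 755 against 865 and 840.0 CPM) and Snai1 (12.3 and 14 against 14.7 and 13.8 CPM) were not called. Of 7 cartilage genes tested 2 fell (3.35% of all genes tested did). They were type II collagen (Col2a1, 77.1 and 70.3 against 8.56 and 8.34 CPM, log2 fold change -3.12 ± 0.24, adjusted p = 0.00551) and its activator Sox9 (18.9 and 21 against 8.32 and 6.15 CPM). Of the 6 calls of the gut and cartilage lists, 1 was left without control 1 (Col2a1), 2 without control 2, 8 were made without KO 1 and 3 without KO 2.

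Several neural progenitor genes were lower in the KO libraries. Of 22 neural progenitor genes 7 fell and 1 rose (3.35% and 1.92% of all genes tested did), with a median of -1.57. Below both controls lay 15 and above both 1 (25.3% and 25.7% of all genes tested did). Sox21, a SoxB2 factor of neural progenitors, measured 4.87 and 4.77 CPM in the controls and 0.243 and 0.410 CPM in the KO libraries (log2 fold change -3.88 ± 0.35, adjusted p = 0.00634). Otx2, a factor of the anterior brain, was at 14.4 and 11.4 against 2.01 and 2.13 CPM (log2 fold change -2.63 ± 0.53, adjusted p = 0.0425). Six3, of the anterior forebrain and eye field, had no count in either KO library and 1.77 and 1.64 CPM in the controls, at least 44.4-fold lower against 3 counts over the group (adjusted p = 0.0123). Sox2 and Pax6 fell, with log2 fold changes of -1.09 and -1.52, while Sox1 was not called (adjusted p = 0.0872). Emx2, known from dorsal forebrain and also from the urogenital mesoderm, rose from 0.303 and 0.689 CPM in the controls to 2.43 and 4.15 CPM (log2 fold change 2.73 ± 0.52, adjusted p = 0.0373). Neuronal genes gave 1 call among 18, Map2, lower. The neural progenitor list had 1 lower call without control 1, 3 without control 2, 6 without KO 1 and 4 without KO 2.

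Blood, endothelial and macrophage genes gave few calls by edgeR. Of 22 blood progenitor and erythroid genes 1 was called, higher. At an unadjusted p under 0.05 there were 7, and DESeq2 called 5. Over all 17022 genes tested these numbers were 3392 and 2027. Of the 22 genes, 11 lay above both controls (25.7% of all genes tested did), with a median of 0.52. The erythroid factor Gata1 measured 5.74 and 4.21 CPM in the controls and 9.07 and 9.57 CPM in the KO libraries (adjusted p = 0.157), and the embryonic globin Hbb-bh1 810.3 and 393 against 696 and 1014 CPM, overlapping. None of 16 endothelial and none of 19 macrophage genes was called by edgeR, with 4 and 2 at an unadjusted p under 0.05 and 1 and 2 called by DESeq2. Pecam1, of endothelial junctions, measured 50.5 and 48.4 against 49.2 and 30.5 CPM, and Csf1r, the macrophage growth factor receptor, 156 and 173 against 151 and 128 CPM. Of the endothelial genes 10 lay below both controls (25.3% of all genes tested did), with a median of -0.43. Pluripotency genes gave no call among 21 by edgeR, with 2 at an unadjusted p under 0.05 and 1 by DESeq2, and 2 lower without KO 1; Pou5f1 (Oct4) measured 52.9 and 61.9 CPM in the controls and 58 and 61.6 CPM in the KO libraries, and Nanog 15.3 and 17.9 against 27.8 and 19 CPM.

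Calls among Wnt genes went both ways, while those of Notch, FGF and Hedgehog genes were lower. Among 18 Wnt ligands 2 rose and 2 fell: Wnt11, a noncanonical ligand of the heart field, rose from 9.91 and 8.32 CPM in the controls to 23.3 and 24.8 CPM and Wnt5b from 7.81 and 7.39 CPM in the controls to 21.5 and 33 CPM, while Wnt7b fell from 3.66 and 3.89 CPM in the controls to 0.800 and 0.492 CPM and Wnt8b, with 2 counts in the KO libraries, from 1.82 and 0.768 CPM in the controls to 0 and 0.0547 CPM. Of 18 receptors and partners 1 fell, Lgr5. Of 14 inhibitors 2 rose, Sfrp2 and Sfrp4, and 1 fell, Sfrp5 (log2 fold change -2.45). Of 15 targets Ccnd1 and Rnf43 fell and Zcchc12 rose. At an unadjusted p under 0.05 the Wnt ligands, receptors, inhibitors and targets had 7, 11, 7 and 10 genes. DESeq2 called 6, 4, 3 and 7 of them. Over all 17022 genes tested these numbers were 3392 at an unadjusted p and 2027 by DESeq2. Axin2, the target used most as a readout of β-catenin, measured 15.5 and 17.3 CPM in the controls and 15.1 and 11.3 CPM in the KO libraries and was not called (adjusted p = 0.728). Cyclin D1 (Ccnd1) measured 116 and 112 against 39 and 31.7 CPM (log2 fold change -1.69 ± 0.20, adjusted p = 0.0105). Of 22 BMP and TGF-beta genes 5 fell and 1 rose: the ligand Bmp5 went from 39.1 and 42.8 CPM in the controls to 8.68 and 7.82 CPM (log2 fold change -2.31 ± 0.34, adjusted p = 0.0194) and the target Id2 from 219.7 and 175 CPM in the controls to 68.7 and 73 CPM, whereas Bmp4 and Id1 were not called and the target Msx1 rose from 4.27 and 4.63 CPM in the controls to 10.7 and 10.3 CPM. Of the BMP and TGF-beta genes 11 lay below both controls (25.3% of all genes tested did), with a median of -0.49. Of 13 Notch genes 3 fell (3.35% of all genes tested did). These were the ligands Jag1 and Jag2 and the target Hes1, with log2 fold changes of -1.42, -2.15 and -1.21. Of 18 FGF genes Fgf10, a ligand of the second heart field, and the receptor Fgfr4 fell, with log2 fold changes of -1.55 and -2.20. Below both controls lay 10 of the 13 Notch genes (median -0.86) and 13 of the 18 FGF genes (median -0.85), against 25.3% of all genes tested. Of 12 Hedgehog genes, 8 of them below both controls with a median of -1.56, the ligand Shh fell from 28.2 and 23.6 CPM in the controls to 4.32 and 1.97 CPM (log2 fold change -3.04 ± 0.46, adjusted p = 0.02), and its target Gli1 did not pass the test at 26.7 and 31.1 against 12.8 and 6.04 CPM (adjusted p = 0.0556). No Wnt, BMP, Notch, FGF or Hedgehog gene of these lists was called without control 1 or without control 2. Without KO 1 the lower calls were 5 for FGF, 7 for Hedgehog, 2 for BMP and 2 for Notch, and without KO 2 they were 1, 1, 0 and 0.

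The processes tied to Foxk1 and Foxk2 in other cells gave few calls by edgeR. Of 20 glycolysis genes 1 fell (3.35% of all genes tested did), the muscle enolase Eno3 (121 and 80.1 against 16.6 and 22.5 CPM, log2 fold change -2.37 ± 0.40, adjusted p = 0.0266). Below both controls lay 15 (25.3% of all genes tested did) and none above, with a median of -0.55. At an unadjusted p under 0.05 there were 6, and DESeq2 called 5. Over all 17022 genes tested these numbers were 3392 and 2027. Hexokinase 2 (Hk2) measured 134 and 123 CPM in the controls and 72.3 and 47.5 CPM in the KO libraries (adjusted p = 0.0562), and pyruvate kinase (Pkm) 1343 and 1108 against 916 and 723 CPM. Control 1 had the largest summed glycolytic level, 10995 CPM, against 8144 CPM in control 2 and 6950 and 6262 CPM in the KO libraries. Of 15 hypoxia genes Vegfa and Adm fell (3.35% of all genes tested did), with log2 fold changes of -1.27 and -2.27. None of 20 autophagy genes and none of 29 cell cycle genes was called by edgeR, with 3 and 0 at an unadjusted p under 0.05 and 1 and 0 called by DESeq2. Of 34 forkhead genes 6 fell and none rose, among them Foxa1, Foxa2, Foxa3, Foxd1 and Foxe1, the counts being 1 without control 1, 3 without control 2, 11 without KO 1 and 6 without KO 2. Of 16 p53 targets 1 rose, the death receptor Fas (6.44 and 4.69 against 21.9 and 36.3 CPM, log2 fold change 2.39 ± 0.34, adjusted p = 0.017), a call lost without either control library, and Cdkn1a (p21) was not called at 198 and 162 against 182 and 172 CPM. Eno3, Vegfa and Adm were not called without control 1, Eno3 and Vegfa in none of the 4 such fits.

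Day 5 libraries are separate from those of day 10, and among genes called at day 10 a day 5 call in the same direction was about as frequent as among all genes. A day 5 call in the opposite direction was more frequent than among all genes, which was not tested. Since Foxk1 and Eif2s3y separated the labels at day 5 and not at day 10, and the labels do not tell whether the stocks were the same, a difference between days cannot be told apart from a difference between stocks. Of 14430 genes tested at day 5, 43.5% were called (21.9% higher, 21.7% lower), with a biological coefficient of variation of 0.0915 against 0.248 at day 10, so fewer calls at day 10 do not by themselves show smaller effects. Of the 327 genes higher at day 10, 260 were tested at day 5, where 53 were higher (20.4% of those tested, 1.68% of the day 5 list), 95 lower (36.5%) and 112 not called. Of the 570 lower, 395 were tested at day 5, where 87 were lower (22% of those tested, 2.78% of the day 5 list), 125 higher (31.6%) and 183 not called. The difference between the 2 days' effects was itself tested in 16389 genes and passed in 2875 (17.5%, limma with library weights). Of 21 erythroid genes 15 were lower at day 5, and of 22 at day 10 1 was higher; the difference was positive in 14 of 22 (9.21% of all genes). Sarcomere genes at day 5 split into 8 lower and 3 higher of 19, and the day 10 effect was more negative in 17 of 25 (8.33% of all genes). Matrix genes were lower at day 5 in 9 of 21, and the difference was positive in 13 of 24. Gut and simple epithelial genes were higher at day 5 in 9 of 12, and the difference was negative in 8 of 15. Pluripotency genes, 18 of 21 higher at day 5, had a negative difference in 13 of 21. Of 15 cardiac transcription factors 11 were lower and none higher at day 5 (median log2 fold change -1.05), and the difference was negative in 2 and positive in 3 of 17. Of 13 calcium handling and conduction genes 6 were lower and 2 higher at day 5, and the difference was negative in 7 of 20. Among single genes, Tnnt2 was lower at day 5 (28.7 and 30.2 against 7.22 and 5.32 CPM), Tbx5 as well (9.12 and 7.65 against 1.54 and 2.88 CPM), and for both the difference between days did not pass the test (adjusted p = 0.193 and 0.217). Myh6 measured only 2.38 and 2.98 against 3.61 and 1.83 CPM at day 5, overlapping. Fewer genes passed the test of the difference when control 1 or control 2 of day 10 was left out.

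**Figure D5:**
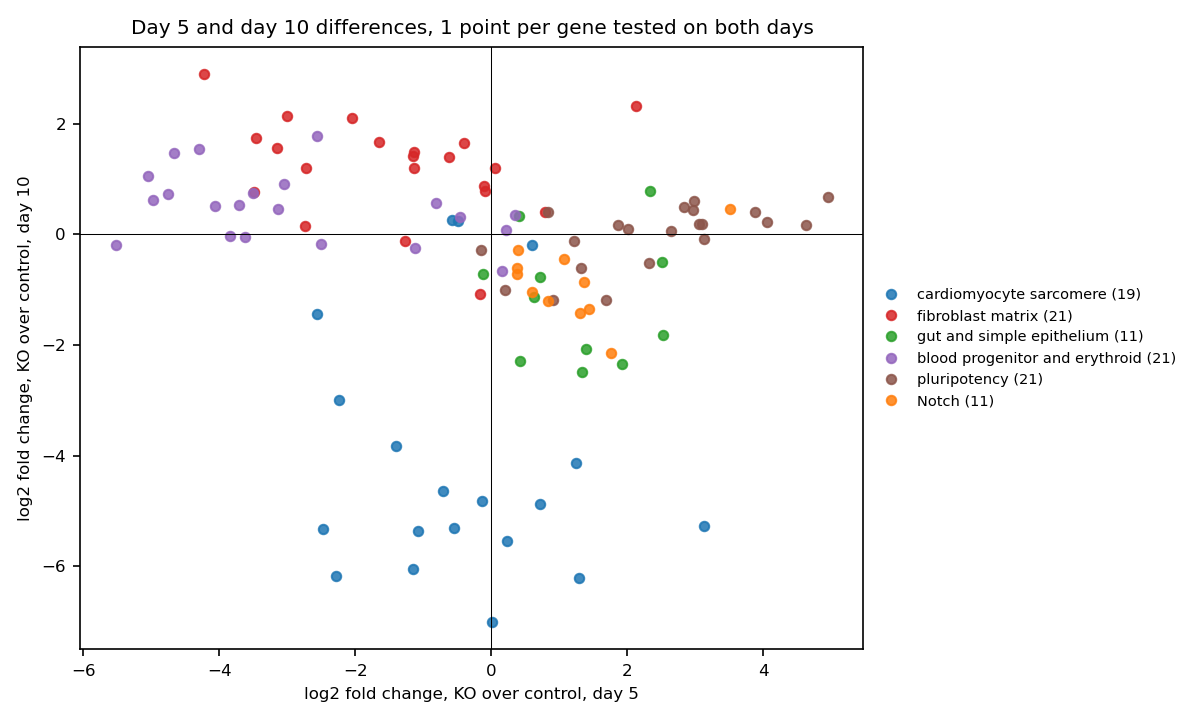
Log2 fold change, Foxk1 KO over control, at day 5 (x axis) and day 10 (y axis) for genes of 6 lists tested on both days, 1 point per gene, with the number drawn in the key. Sarcomere genes (blue) lie low at day 10 on both sides of 0 at day 5; matrix (red) and erythroid genes (purple) lie mostly at the upper left, epithelial (green) and Notch genes (orange) mostly at the lower right.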

How the data were processed

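Poly(A) RNA libraries from embryoid bodies were sequenced paired-end on a NovaSeq, per the labels' protocols. The authors deposited estimated counts per gene, made with kallisto 0.46.2 and the mm10 build per the submitters' processing notes; their annotation release was not found there. All 36047 gene identifiers were matched to GENCODE vM21 (GRCm38) for symbols and positions. The day 10 table was analysed apart from the table of days 3 and 5.

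Counts were rounded, filtered with filterByExpr, scaled by TMM and tested with edgeR 4.0.16 (quasi-likelihood, robust, Benjamini-Hochberg adjusted p under 0.05) in R 4.3.3, in 1 fit of the 6 day 10 libraries. CPM values use TMM-scaled library sizes. The day 10 minus day 5 effect was tested with limma 3.58.1 (voom with quality weights by day). DESeq2 1.42.0 was an alternative. Scripts were tested on simulated data. A count floor is 3 counts.

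The members and the 47 gene lists (820 entries) were chosen with earlier results of these data known. Named genes are Foxk1 and Foxk2, the first 2 of each list with up to 6 further members of smallest p, the 15 largest rises and falls among called genes averaging 5 CPM or more, and the 10 called genes of highest CPM and of smallest p each way. Des, Gata4, Gata6, Hand2, Hoxc4, Hoxc5, Isl1, Myl2, Myl3, Nppa, Otx2, Tbx18, Tcf21, Tpm1 and Vim were added after their values were seen. Promoters come from RefSeq (GRCm38.p6); 12389 tested genes had an entry. Some genes that the naming rule selects are not reported here.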

Additional observations from a re-analysis of the deposited data

Results flagged for a closer look

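The KO effect differed between day 10 and day 5 by the test of the difference itself (limma, adjusted p under 0.05) in 2875 of 16389 genes, 1510 with a higher and 1365 with a lower value at day 10. Genes named for their day 10 calls were chosen on part of the values in this difference. Values here are the day 10 log2 fold change minus the day 5 log2 fold change. Foxk1 itself had a difference of 1.49. The Y-linked genes Eif2s3y, Uty, Ddx3y and Kdm5d, which were higher in the KO libraries at day 5, had differences of -3.29, -3.06, -2.66 and -2.08. The labels do not tell whether the day 10 and day 5 libraries came from the same stocks of the lines.

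Among heart muscle genes the difference was -7.57 for Myh6, -5.86 for Mybpc3, -5.13 for Actc1, -4.58 for Nkx2-5 and -3.83 for Ttn, while the cardiac mesoderm factors Hand2 and Gata6 had positive differences of 2.93 and 1.48. Matrix and mesothelial genes had positive differences, 6.76 for Dcn, 4.90 for Ogn, 4.61 for Lum, 3.90 for Wt1 and 10.7 for Upk3b, the last fitted on day 5 KO libraries with no Upk3b count. The erythroid factor Gata1 had a difference of 3.94. The endodermal gene Foxa1 and the epithelial genes Cldn6 and Epcam had negative differences of -4.75, -4.38 and -3.78. Of signalling genes, the Notch ligand Jag2 and target Hes1 had -3.93 and -2.04, Ccnd1 had -2.59 and the BMP target Msx1 had 2.62. With 2 libraries a group, no library could be tested for standing apart from its group.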

How the results depend on the processing

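All 104 called genes named above kept their direction under each alternative that could be computed for them. Of the alternatives that kept all 4 libraries, the crossed block apart, DESeq2, its size factors in edgeR, a prior that is not robust and protein-coding genes only left each of the 104 called, while total count scaling left 80, the replicate block 86, the control and KO libraries alone 101 and no filter on low counts 99. A CPM minimum of 1 in 2 libraries left 103, 1 gene falling under it. The number of genes called, 897, became 2027 with DESeq2 (832 higher, 1195 lower) and 1737 without a filter (688 and 1049). Genes called higher, 327, became 522 with the control and KO libraries alone, 150 under total count scaling and 197 with the replicate block, which left 611 calls in all. Leaving out 1 library gave 63 to 838 calls, 3 to 244 higher and 60 to 594 lower. The numbers did not pair the samples: deviations from the group means of same-numbered control and KO libraries had r = -0.297, against 0.242 for control with IWR1-treated and -0.322 for KO with IWR1-treated libraries. With the crossed replicate block, added after seeing this, 3257 genes were called, 1612 higher and 1645 lower, while 8 of the 104 named calls were lost (Apoa1, Dcn, Fmod, Lox, Lum, Myh6, Myl3 and Wt1); the labels give no such pairing. The day 5 count was 4030 to 7565 without 1 library, against 6281. The count of differences between days, 2875, was 1777 with the replicate block and 582 to 3658 without 1 day 10 library. For the changes in counts other than those from fewer samples, the cause was not tested. Some named genes that did not pass in the main fit were called elsewhere. DESeq2 called Afp, Cdh1, Col1a1, Gli1, Hk2, Isl1, Mef2c and Myl2 among others, at adjusted p from 0.00032 (Afp) to 0.036 (Myl2). With the control and KO libraries alone, edgeR called Col1a1 (adjusted p = 0.0459). Others, such as Hand2 and Gata1, were not called by DESeq2 (adjusted p = 0.119 and 0.0852).

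Signs that turned belonged to genes that were not called: Eif2s3y, Pou5f1 and Snai1 under total count scaling (-0.11, -0.10 and -0.037), and, in the range over fits without 1 library, Cdkn1a (-0.16 to 0.13), Foxk2 (-0.17 to 0.10), Pdgfra (-0.31 to 0.53), Gata4 (-0.37 to 0.19), Eif2s3y (-0.14 to 0.18) and Pou5f1 (-0.048 to 0.18). With 3 residual degrees of freedom, small changes of genes with few counts cannot be seen at this depth.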
